A study of Danio rerio with 2 samples.

Results

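The genes described here are the zebrafish Hox cluster genes, 46 of the 12307 named genes for which the 2 arrays gave a ratio. They were taken by name: every probe whose RefSeq accession belongs to a gene called *hox*, followed by a cluster letter and a paralog number, was a member. The gene table holds 50 such genes. Of the 4 without a matched probe, *hoxa5a*, *hoxc10a* and *hoxc11b* are protein-coding and *hoxa10ap* is a pseudogene. The remaining 46 genes were read by 113 probes, of which 5 were well above background on the Ctrl MO array only, 1 on neither array and the others on both. The probe on neither array, for *hoxb13a*, was left out, and 112 probes were used.

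Total RNA came from whole zebrafish at 3 dpf (days post fertilization) that had been injected with 8 ng control morpholino (Ctrl MO) or 8 ng *miR-132* MO. A morpholino is an antisense oligonucleotide, and this one binds mature *miR-132*, a neuron-enriched miRNA, throughout the embryo and not in a chosen tissue. Each group is 1 array labelled with Cy3, so there are no replicates, no ratio carries a p-value, and the comparison asks which transcripts differed between these 2 RNA samples. The strain, the number of animals behind each sample and the level of *miR-132* itself are not analysed here.

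Hox genes encode homeodomain transcription factors that give cells their position along the head to tail axis. They lie in clusters in which the order of the genes matches the order of their expression: low paralog numbers are used in the hindbrain, middle numbers in the trunk and high numbers in the tail and the fins. Zebrafish have 7 clusters with protein-coding Hox genes, here called *hoxaa*, *hoxab*, *hoxba*, *hoxbb*, *hoxca*, *hoxcb* and *hoxda*, because the fish genome was duplicated and genes were then lost. In the gene table, 9 miRNA genes lie between the Hox genes of these clusters, 5 of the *mir196* family and 4 of the *mir10* family. In zebrafish, *miR-10* represses *hoxb1a* and *hoxb3a*, and in mouse, *miR-196* cleaves the *Hoxb8* transcript. These miRNAs were not measured here.

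Values are log2 processed intensities minus the 75th percentile of the array, which was 731 (Ctrl MO) and 866 (*miR-132* MO). A ratio is the *miR-132* MO value minus the Ctrl MO value, averaged over the probes of a gene. Of the transcript spots, 88.0% (Ctrl MO) and 80.3% (*miR-132* MO) were well above background, and 0 were saturated. Negative control spots had an SD of 2.98 (Ctrl MO) and 17.2 (*miR-132* MO). The lowest intensity that counted as well above background was 7.17 (Ctrl MO) and 16.8 (*miR-132* MO). A probe could therefore pass on the Ctrl MO array alone without reading brighter there. The number of arrays limits the precision. Among 25 probes printed on several spots, the log2 ratio of a spot had a median SD of 0.10, which describes noise of single spots and nothing else. The scanner software gave each probe an error estimate as well, which for most Hox probes came to about 0.20 on the log2 ratio. All 4 neuron markers and all 4 skeletal muscle markers on the list were above background on both arrays. Most spots were, so this says little about the labelled material.

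Of the 46 Hox genes, 35 read higher in *miR-132* MO larvae, most of them by little. The other 11 Hox genes were below 0, where 50.5% of all genes were above 0. The median log2 ratio of the 46 genes was 0.20, a 1.15-fold difference, against 0.004 over all 12307 genes. The Hox median stayed above 0 in each of the other scalings and filters that were run (0.080 to 0.25). The median of all genes moved as well, from -0.041 with normexp to 0.059 with spike-in scaling. The Hox median lay above it by 0.12 (normexp) to 0.21 (no floor on dim readings). The differences were small: 1 Hox gene, *hoxc1a*, was at least 1.5-fold higher and 0 were at least 1.5-fold lower, where 4.39% and 7.63% of all genes were. At the smaller step of 1.2-fold, 19 Hox genes were higher and 1 was lower, against 18.2% and 19.7% of all genes, and 26 lay within 1.2-fold either way. Set against the scanner error, 14 Hox genes were higher by more than 2 errors and 1 was lower, *hoxc12b*, whose 2 probes disagreed. That error treats the probes of a gene as independent, so it shrinks with more probes. It comes from the scan of single arrays, so it holds no variation between samples and is no test. The same count was not made over all genes, so there is no share to read it against. Whole animals were used, so a change in the number of cells of a type and a change in RNA per cell cannot be told apart.

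The same count was made among other genes with a Ctrl MO level within the range of the Hox genes. That range took in most of the 12261 other genes, so levels were matched only loosely. These 9575 genes had a median log2 ratio of 0.001, with 50.2% above 0. Their ratios spread more widely, with an interquartile range of 0.41 against 0.28 for the Hox genes. Several probes were averaged for 5696 of these 9575 genes and for 38 of the 46 Hox genes. A mean of more probes varies less, so the 2 spreads are not on an equal footing. Of them, 4.2% were at least 1.5-fold higher and 8.4% lower, against 1 and 0 of the 46 Hox genes. The probes of a gene can be set side by side as well. Among the 38 Hox genes with several probes, every probe was above 0 in 24, every probe was below 0 in 4, and the probes lay on both sides of 0 in 10. Among all genes with several probes, every probe was above 0 in 32.6% and below 0 in 28.1%.

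**Figure D1:**
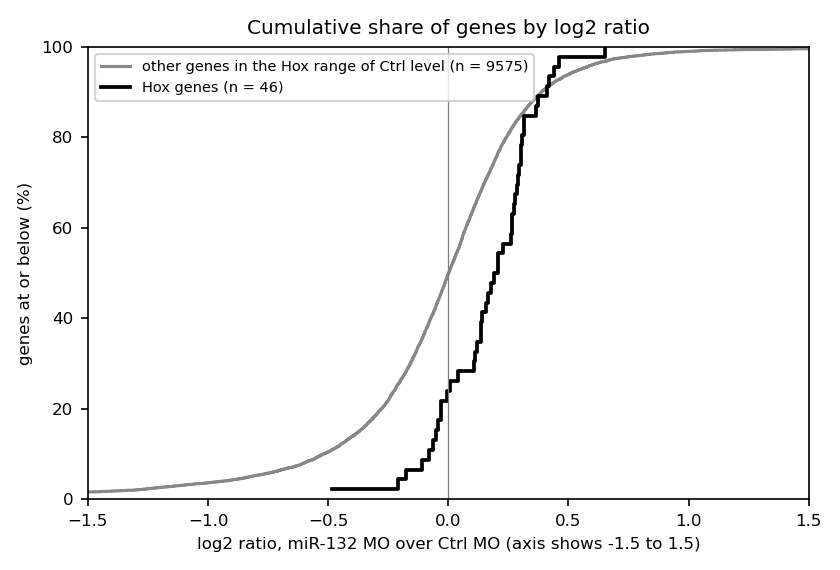
Cumulative share of genes (vertical axis, %) by log2 ratio (*miR-132* MO to Ctrl MO) (horizontal axis, shown from -1.5 to 1.5), for the 46 Hox genes in black and the 9575 other genes with a Ctrl MO level in the Hox range in grey. The black curve crosses the middle at 0.20 and the grey curve at 0.001, and the black curve is the steeper of the pair.

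The plot of levels shows most Hox genes near the line of equal levels, with *hoxc1a* above it and *hoxc12b* below it. Intensity depends on the probe as well as on the transcript, so the brightness of different genes was not compared.

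**Figure D2:**
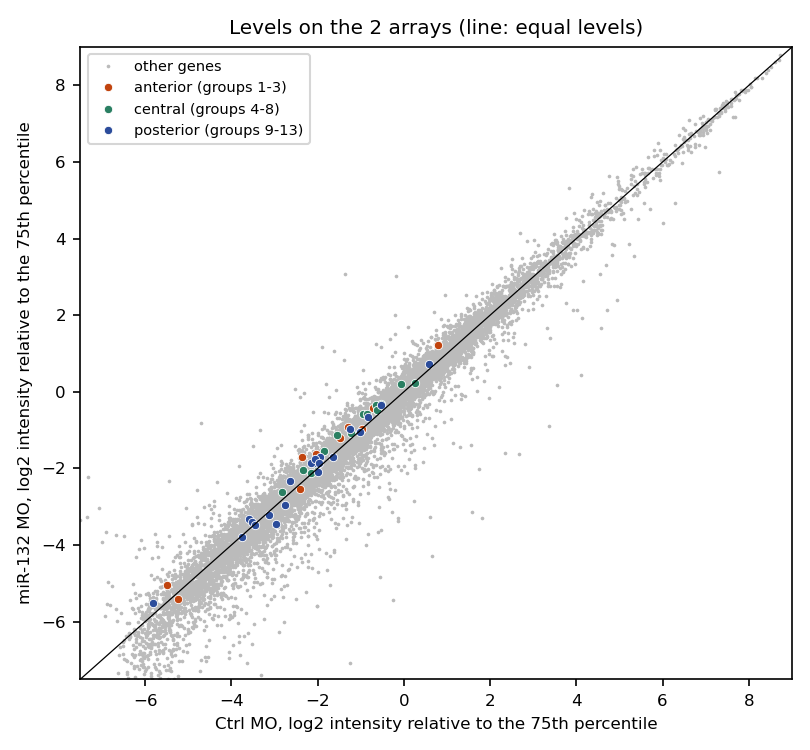
Level of each gene on the Ctrl MO array (horizontal axis) and on the *miR-132* MO array (vertical axis), both as log2 intensity relative to the array's 75th percentile. Grey points are other genes, coloured points are Hox genes by paralog class, and the line marks equal levels. Most Hox points lie near the line, and 35 of 46 lie above it.

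Taken by class along the clusters, the median ratio was highest at the anterior end. The 10 genes of paralog groups 1 to 3 had a median log2 ratio of 0.33, the 15 genes of groups 4 to 8 a median of 0.21 and the 21 genes of groups 9 to 13 a median of 0.14. Across the 46 genes, Spearman's rho of the ratio with the paralog number was -0.36 (Pearson's r -0.38), and -0.46 over the 44 genes that were above background on both arrays. This is a description across genes, which share the same 2 arrays and are not independent. Within clusters of at least 6 genes, rho was -0.77 in *hoxaa* (6 genes), -0.43 in *hoxca* (10 genes), -0.61 in *hoxda* (7 genes) and 0.05 in *hoxba* (11 genes).

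The order of the class medians was the same in all scalings, filters and probe summaries run, although their size was not. With normexp background correction they were 0.17, 0.12 and 0.035. The drop was not even along the clusters. The 12 genes of groups 9 to 11 had a median of 0.21, like the 0.21 of the central class, and the 2 genes of group 2 had a median of -0.02. Groups 12 and 13, set apart after the values were seen, held 6 of the 11 genes below 0, and their 9 genes had a median of -0.03. The 37 genes of groups 1 to 11 had a median of 0.26, with 32 above 0, where 50.5% of all genes were above 0.

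**Figure D3:**
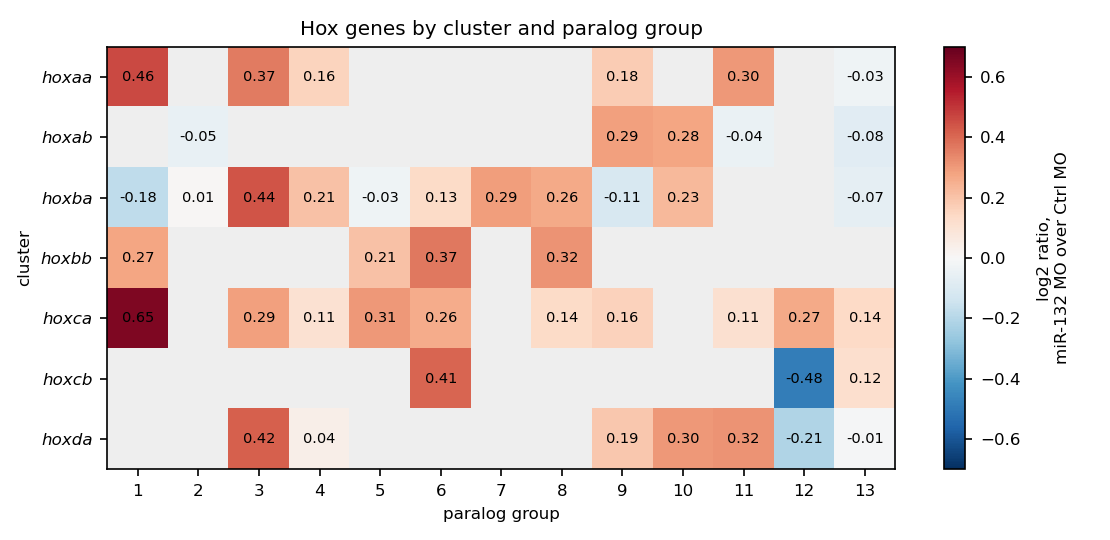
Log2 ratio (*miR-132* MO to Ctrl MO) of each measured Hox gene, by paralog group (columns) and cluster (rows). Red is higher in *miR-132* MO, blue is higher in Ctrl MO, and grey cells have no measured gene. The reddest cell is *hoxc1a* at 0.65 and the bluest is *hoxc12b* at -0.48, whose 2 probes disagreed.

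In group 1, *hoxc1a* (gene 58046) had the highest ratio of all 46. A probe for *hoxc1a* read 264 with Ctrl MO and 474 with *miR-132* MO, and its other probe read 76.8 and 148. The log2 ratios were 0.60 and 0.70, with a mean of 0.65, or 1.57-fold, and both probes were past 1.5-fold. With normexp the mean was 0.29, which is under 1.5-fold. A ratio of 0.65 was higher than that of 96.6% of all genes.

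*hoxa1a* stood at 0.46, with probes that did not give the same reading. A dim probe read 18.4 with Ctrl MO and 38.3 with *miR-132* MO, at a log2 ratio of 0.81. The other read 14.3 and 18.3, the latter too dim to count as well above background, at a log2 ratio of 0.11. The gene therefore passed 1.5-fold where both arrays had to be above background, and was at 0.06 with normexp.

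The duplicates *hoxb1a* and *hoxb1b* lay on opposite sides of 0. *hoxb1b*, which acts in hindbrain segmentation, read 536, 262 and 130 with Ctrl MO for its 3 probes and 744, 380 and 190 with *miR-132* MO, with log2 ratios between 0.23 and 0.31. *hoxb1a*, the gene that gives rhombomere 4 and its facial motor neurons their identity, has 1 probe, which read 19.3 with Ctrl MO and 20.2 with *miR-132* MO. After scaling this is a log2 ratio of -0.18, with a scanner error of 0.38, and the *miR-132* MO reading was not well above background. With quantile normalization it was 0.03, so no direction can be given for *hoxb1a*.

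Group 2 genes had ratios near 0. *hoxa2b*, which gives the second pharyngeal arch its identity, had a log2 ratio of -0.05. Its 3 probes above background on both arrays were at -0.07, -0.02 and -0.05. The other, which read 14.9 with Ctrl MO and 14.0 with *miR-132* MO, was not well above background there and gave only a bound, and with its own reading in place of the bound the gene was at -0.12. *hoxb2a* had 2 probes at 0.01 and 0.01, the first from 208 to 248 and the other from 666 to 792. Both genes crossed 0 under some of the other settings.

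Group 3 genes are used in the posterior hindbrain and the neck region. All 4 were above 0, with a median of 0.39. *hoxb3a* read 3641 and 440 with Ctrl MO and 5267 and 788 with *miR-132* MO, which gave log2 ratios of 0.29 and 0.60 and a mean of 0.44. *hoxd3a* had 5 probes, the most of any Hox gene, and all of them were above 0, at 0.13, 0.30, 0.42, 0.56 and 0.70. The brightest of these probes (1668 in Ctrl MO) had the lowest ratio and the dimmest (26.6) the highest.

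The remaining group 3 genes were *hoxa3a* and *hoxc3a*. *hoxa3a* was read by 1 probe, from 299 to 457, at 0.37. *hoxc3a* has 3 probes, at 0.24, 0.28 and 0.34. The ratio of all 4 group 3 genes was above 0 in every setting run, with 0.13 as the lowest, for *hoxd3a* read by its brightest probe.

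**Figure D4:**
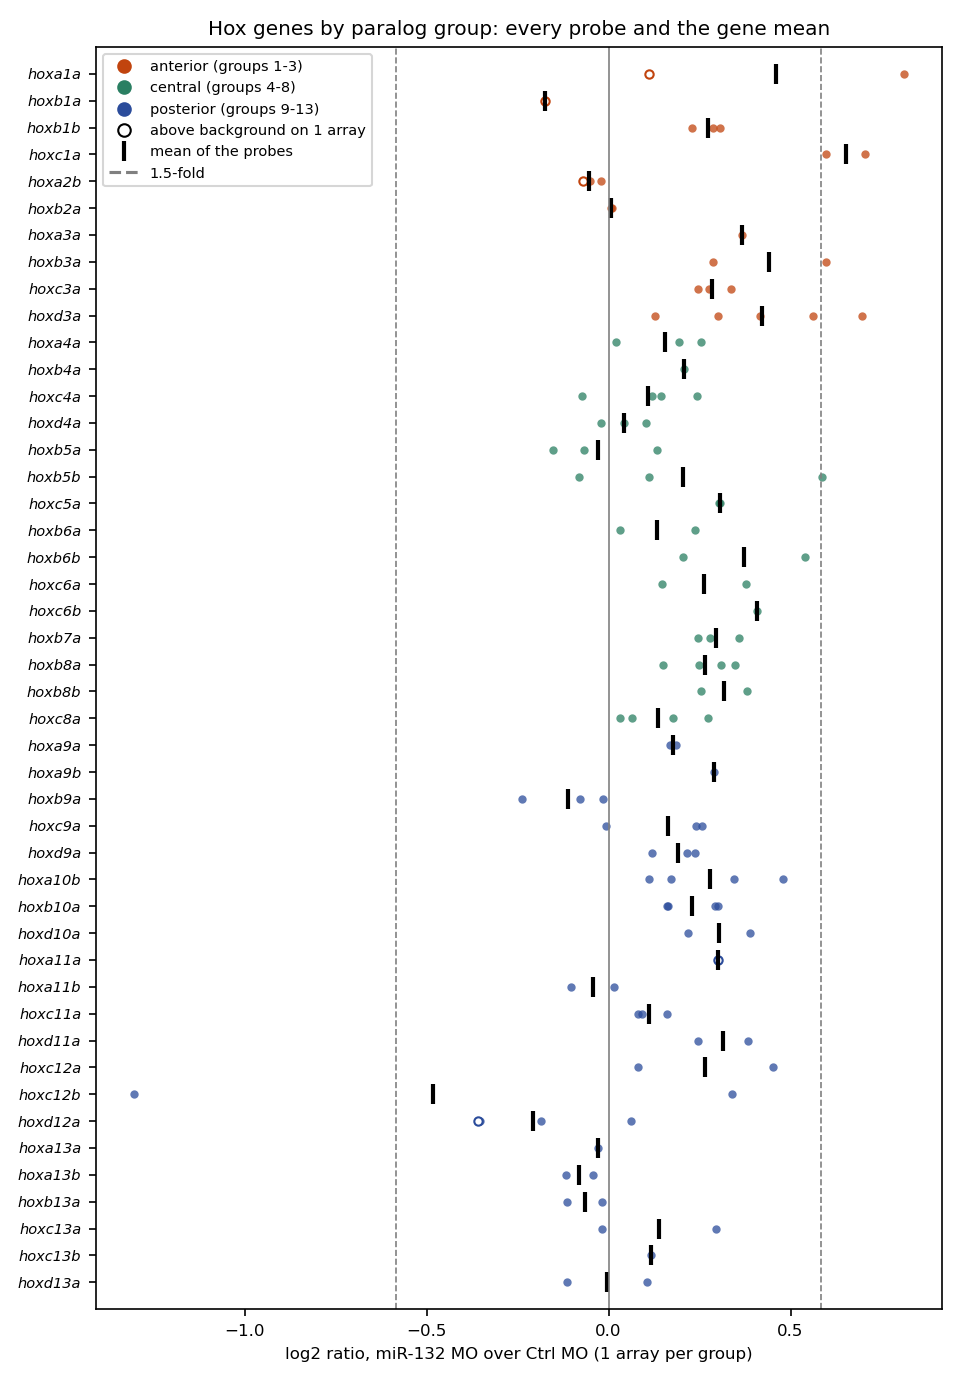
Log2 ratio (*miR-132* MO to Ctrl MO) (horizontal axis) of each of the 112 probes used, 1 row per Hox gene, ordered by paralog group and coloured by class. Open circles are probes well above background on 1 array only, black bars are gene means, and dashed lines mark 1.5-fold. The anterior and central genes lie mostly to the right of 0, with *hoxc1a* past the dashed line, and the group 13 genes lie around 0.

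The central genes, groups 4 to 8, were the most alike. Of the 15 genes 14 were above 0, from 0.04 for *hoxd4a* to 0.41 for *hoxc6b*, and 6 were at least 1.2-fold higher. The exception was *hoxb5a* at -0.03. Of all genes, 50.5% were above 0 and 18.2% were at least 1.2-fold higher. Group 4 genes, which mark the rear of the hindbrain, were the lowest of the class, with a median of 0.13, and the group 6 genes were the highest, with a median of 0.32.

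*hoxc6b* was read by 1 probe, which went from 251 in Ctrl MO to 395 in *miR-132* MO, a log2 ratio of 0.41. Its duplicate *hoxc6a* was at 0.26, with probes from 520 to 682 and from 315 to 484. In mouse, *Hoxc6* belongs to the forelimb level of the spinal cord. *hoxb6b*, of the same group, was at 0.37 with probes at 0.20 and 0.54, and *hoxb6a* at 0.13.

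*hoxb5a* and *hoxb5b* belong to the region where the pectoral fins form, and had uneven probes. *hoxb5a* read 2210, 1423 and 214 with Ctrl MO and 2499, 1518 and 278 with *miR-132* MO. Its log2 ratios were -0.07, -0.15 and 0.13. *hoxb5b* read 1644, 973 and 81.8 with Ctrl MO and 1842, 1245 and 146 with *miR-132* MO, with log2 ratios of -0.08, 0.11 and 0.59. The dimmest probe gave the highest ratio in both genes, and the sign of either gene changed with the setting.

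The 4 genes of groups 7 and 8 were all above 0. *hoxb7a* was at 0.29, with 3 probes from 0.25 to 0.36. *hoxb8a* (gene 30343) had 4 probes, which read 2867, 913, 779 and 117 with Ctrl MO and 4040, 1202, 1143 and 177 with *miR-132* MO, with log2 ratios from 0.15 to 0.35 and a mean of 0.26. *hoxb8b* was at 0.32 and *hoxc8a*, whose mouse counterpart is used in motor neurons of the forelimb level, at 0.14, with 4 probes from 0.03 to 0.27. All 4 genes stayed above 0 in every setting.

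The posterior genes were split, after the values were seen, into groups 9 to 11 and groups 12 and 13. Groups 9 to 11 serve the trunk, the lower spinal cord and the base of the fins. In them 10 of 12 genes were above 0 and 5 were at least 1.2-fold higher, against 50.5% and 18.2% of all genes. *hoxa11a*, whose direction is uncertain, was counted in both. *hoxd11a* had the highest ratio of the class, at 0.32, with probes from 168 to 261 and from 81.0 to 114. The group 10 genes *hoxa10b*, *hoxb10a* and *hoxd10a* were at 0.28, 0.23 and 0.30, and all 10 of their probes were above 0.

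The genes of groups 9 to 11 that were not above 0 were *hoxb9a* and *hoxa11b*. *hoxb9a* was at -0.11, with all 3 of its probes below 0, at -0.02, -0.08 and -0.24, but at 0.10 with normexp. *hoxa11b* was at -0.04, with probes at -0.10 and 0.02. Its duplicate *hoxa11a* has 1 probe, which read 12.9 with Ctrl MO and 18.8 with *miR-132* MO, where it did not count as well above background. Its log2 ratio of 0.30 turned to -0.10 with normexp, so no direction can be given for *hoxa11a*.

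Group 13 genes act at the end of the body and of the fins, where in zebrafish *hoxa13a*, *hoxa13b* and *hoxd13a* are needed to form the fin rays. Their 6 genes had a median log2 ratio of -0.02, from -0.08 for *hoxa13b* to 0.14 for *hoxc13a*. *hoxa13b* read 96.2 and 71.6 with Ctrl MO and 105 and 82.3 with *miR-132* MO, with log2 ratios of -0.12 and -0.04. *hoxc13a* read 1992 and 598 with Ctrl MO and 2331 and 870 with *miR-132* MO, with log2 ratios of -0.02 and 0.30. None of the 6 genes was at least 1.2-fold apart between the arrays, and 5 of them changed sign under some setting.

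Group 12 held the lowest ratios. *hoxc12b* (gene 58062) was at -0.48, the mean of 2 probes that went opposite ways. A probe read 178 with Ctrl MO and 85.7 with *miR-132* MO, a log2 ratio of -1.30, and it was the only Hox probe at least 1.5-fold lower. The other read 48.7 and 72.9, a log2 ratio of 0.34. The distance between them, 1.64, was by far wider than the spot noise of 0.10, so the gene has no single value. *hoxd12a* was at -0.21, with 3 probes above background on both arrays at -0.35, -0.19 and 0.06. Its other probe, at -0.36, read 20.4 with *miR-132* MO, which was not well above background, and without it the gene was at -0.16. *hoxd12a* remained below 0 in every setting, while *hoxc12a* was at 0.27 with probes at 0.08 and 0.45.

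Of the 10 pairs of duplicates measured on both sides, 1 differed by at least 1.5-fold, *hoxc12a* and *hoxc12b*, with the split probes described. The other 9 differed by 0.02 to 0.45 on the log2 scale. The smallest distance was between *hoxc13a* and *hoxc13b*, and the widest of the 9 was between *hoxb1a* and *hoxb1b*, which rests on the dim *hoxb1a* reading. Whether a probe also binds the transcript of the duplicate was not tested.

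By cluster, all 10 *hoxca* genes and all 4 *hoxbb* genes were above 0 (50.5% of all genes were), with medians of 0.21 and 0.30. In *hoxaa* 5 of 6, in *hoxda* 5 of 7, in *hoxba* 7 of 11 and in *hoxcb* 2 of 3 genes were above 0. *hoxab* was the exception, with 2 of 5 genes above 0 and a median of -0.04. Its genes are *hoxa2b*, *hoxa9b*, *hoxa10b*, *hoxa11b* and *hoxa13b*, so it holds 1 anterior and no central gene, and cluster and paralog group cannot be told apart in so few genes.

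The genes that surround the clusters were read as well. Of 42 genes, the nearest 3 with a symbol on either side of each cluster, 30 were measured. Their median log2 ratio was -0.04, with 11 above 0, where 50.5% of all genes were above 0. Without the homeobox genes *evx1*, *evx2* and *eve1* and the retinoic acid receptor gene *rarga*, 8 of 26 were above 0. That subset was not planned, and it leaves out *evx1*, *evx2* and *rarga*, which were all above 0. The homeobox genes *evx1* and *evx2* (1 probe) were at 0.59 and 0.41, while *eve1* (1 probe) was at -0.04. Both *evx1* and *evx2* continue the clusters beyond group 13 and are used in spinal interneurons and fins. *evx1* read 302 with Ctrl MO and 530 with *miR-132* MO as the unscaled mean of its 2 probes. The scaled log2 ratios of these probes were 0.53 and 0.66, of which the lower was under 1.5-fold. Their mean was 1.51-fold higher.

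Proteins of the Pbx, Meis and Pknox families bind DNA together with Hox proteins. Their genes had a median log2 ratio of 0.20 over 12 measured of 14, with 10 above 0, where 50.5% of all genes were above 0. Of these, *pbx4*, the main hindbrain Pbx gene of zebrafish, *pbx1b* and *meis2b* were at least 1.5-fold higher, at 0.70, 0.66 and 0.65, and 0 were lower, where 4.39% and 7.63% of all genes were. The probes were not even: those of *pbx4* ran from 0.08 to 1.03 and those of *meis2b* from 0.52 to 0.77. For *pbx1b*, 1 of the 2 probes was at 0.23, so that *pbx1b* passed 1.5-fold through its other probe alone. *pbx2* was the lowest, at -0.10, with probes at -0.77 and 0.56. For *pbx4* the mean of the unscaled readings of 4 probes went from 1049 in Ctrl MO to 2363 in *miR-132* MO larvae. That mean leans on the brighter probes, while the ratio of 0.70, or 1.63-fold, averages the scaled log2 ratios.

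Retinoic acid switches on anterior Hox genes, and its genes were near the median of all genes. The list of enzymes, binding proteins and receptors had a median of 0.02 over 22 measured of 23, with 0 past 1.5-fold either way. *aldh1a2*, the main enzyme of retinoic acid synthesis in the trunk, was at -0.18 and *cyp26a1*, which breaks retinoic acid down, at -0.30. The receptor gene *rarga* (1 probe), which lies next to the *hoxca* cluster, was the highest, at 0.44, and *aldh1a3* the lowest, at -0.53.

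Among hindbrain and Cdx regulators, 1 of 11 measured was at least 1.5-fold higher and 1 lower, against 4.39% and 7.63% of all genes. *gdf11* (1 probe) read 146 with Ctrl MO and 324 with *miR-132* MO, at a log2 ratio of 0.91. Its mouse counterpart turns on posterior Hox genes in the trunk. *hnf1ba*, an early regulator of the posterior hindbrain that is also used in kidney, liver and pancreas, was at -0.76. Its probes ran from -1.17 to -0.43. The Polycomb and Trithorax genes, which keep Hox genes off or on, had a median of 0.03 over 20 measured of 28. Past 1.5-fold were *bmi1a* (1 probe) at 0.75 and *phc2a* at 0.68, and 0 were lower, against 4.39% and 7.63% of all genes. The probes of *phc2a* ran from 0.52 to 0.84.

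**Figure D5:**
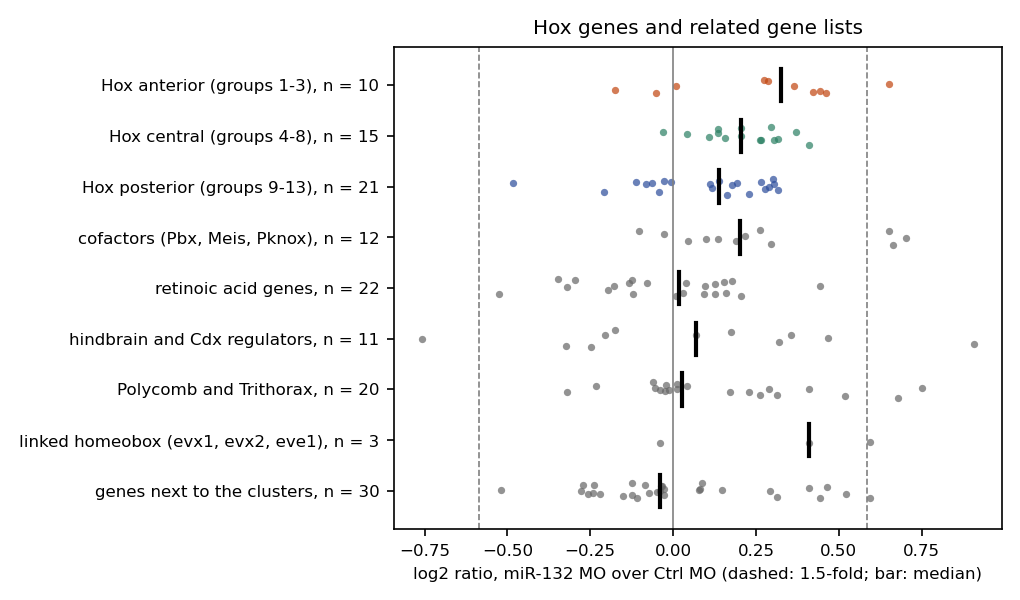
Log2 ratio (*miR-132* MO to Ctrl MO) (horizontal axis) of each measured gene in the 3 Hox classes and in 6 related lists (rows), with the median as a black bar and 1.5-fold as dashed lines. The medians of the Hox classes run from 0.33 to 0.14, that of the cofactors is 0.20, and that of the genes next to the clusters is -0.04.

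Markers of some other tissues had ratios farther from 0 than any Hox gene, and those of skeletal muscle were divided. The marker lists were chosen with earlier results of these data known, so this contrast is a description only. All 4 photoreceptor markers were between -1.59 and -1.17 and all 4 exocrine pancreas markers between -5.08 and -2.74, while the 3 hatching gland markers were between 2.29 and 2.69. The muscle marker *acta1b* was at -1.60, while *mylpfa*, *tnnt3a* and *ckma* were at -0.15, 0.29 and 0.40. The part of these tissues in the Hox ratios was not tested.

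Markers of tissues that use Hox genes, in short lists, lay on both sides of 0. The list medians were -0.04 for neurons, -0.19 for hindbrain and 0.17 for spinal cord and motor neurons. They were 0.08 for pectoral fin and, with 2 bounds, 0.21 for tail bud and paraxial mesoderm. The 4 neuron markers were between -0.34 and 0.10, and the hindbrain markers *egr2b* (1 probe) and *mafba* at -0.21 and -0.18. The 5 markers of spinal cord and motor neurons were between -0.15 and 0.77, with *olig2* (1 probe) the highest. The 4 measured of 5 pectoral fin markers were between -0.20 and 0.31. Of 6 markers of the tail bud and paraxial mesoderm, 4 were measured, all dim. *tbxta* (1 probe) was at 1.07 and *msgn1* at 0.52. *tbx6* and *tbx16* were not well above background with *miR-132* MO and gave only a bound, at -0.97 and -0.09. Their part in the ratios of the Hox genes was not tested.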

How the data were processed

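The authors deposited the spot intensity of 2 one-colour Agilent arrays on the same slide, background-subtracted by Agilent Feature Extraction 10.7 (per the labels) and not normalized between arrays. Rounded copies of the scanner values, and a table of the authors' own comparison with fold changes of selected probes, were not used. Here, spots with outlier flags and control spots were left out. A probe was used if it was well above background on 1 array or both. If 1 array did not, its reading there was raised, where lower, to the least intensity that counted as well above background on that array. RefSeq accessions named 25067 of 43603 probes through the NCBI gene table of assembly GRCz12tu, and the array was designed on Zv8, so no coordinates are given. The scanner files hold no gene names, so the RefSeq symbol alone chose the members. The authors' comparison names a further probe as *hoxa3a* and another as *hoxb6b*. Their accessions are not from RefSeq, so both were left out.

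Values were printed for Hox genes at or past 1.5-fold, for the highest and lowest ratios and the highest intensity of each class (a choice of names, not a comparison of levels), for duplicates more than 1.5-fold apart, and for further members of each paralog group, chosen after their values were seen. Of the other lists, the highest and lowest genes and those past 1.5-fold were named, with others picked for their role. The members and lists were chosen with earlier results of these data known. With 1 array per group no test was run. No sequence is printed, since none was used here.

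The alternatives were median scaling, quantile normalization, loess (span 0.3), spike-in scaling, normexp (offset 50, on median signals), both arrays above background, no filter, no floor, the brightest probe, the median probe, a 2-fold threshold, every probe past 1.5-fold and probes counted singly. The code was run on a simulated pair, the Ctrl MO array and a copy of it with added spot noise and a uniform shift. A log2 change of 1.5 was put into 200 of 12290 genes: 200 were recovered, with 0 false calls. That change lies far past the 1.5-fold threshold, and no floor was applied. The run therefore checks the code and says nothing on differences as small as those of the Hox genes. Tools were Python 3.11.15 with numpy 2.4.6, pandas 2.3.3 and statsmodels 0.14.6, and limma 3.58.1 in R 4.3.3.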

Additional observations from a re-analysis of the deposited data

How the results depend on the processing

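No paired analysis was possible because there is a lone array in either group. The number of Hox genes at least 1.5-fold higher was 1 (*hoxc1a*) and that of lower ones 0. Higher genes were 2, *hoxa1a* and *hoxc1a*, with quantile normalization, with both arrays above background and with the brightest probe, 0 with normexp or a 2-fold threshold, and 6 when probes were counted singly. Lower ones were 1 with the brightest probe (*hoxc12b*) and 1 among single probes. The median log2 ratio of the Hox genes was 0.20, and it was 0.080 with normexp, where the anterior median was 0.17 and the posterior 0.035. With the brightest probe the Hox median was 0.12, and with spike-in scaling 0.25. Over all 12307 genes 540 were higher and 939 lower, or 4.39% and 7.63%. The shares were 6.06% and 6.69% with quantile normalization, and 3.97% and 8.39% with the brightest probe. With both arrays above background they were 4.04% and 7.23% of 11740 genes. The counts were 235 and 573 with normexp (1.91% and 4.66%), and 124 and 411 at 2-fold. Among the 7188 genes with 2 or more probes, a setting chosen after seeing the data, they were 270 and 414 (3.76% and 5.76%). Single probes, not genes, numbered 1371 and 1785. Lower genes made up 63.5% of the calls, 52.5% with quantile normalization, 53.7% with spike-in scaling, 70.9% with normexp and 71.6% with no floor on dim readings, where 485 were higher and 1224 lower. Beyond the construction of each setting, the cause was not tested. Of the 46 Hox genes, 27 were above 0 and 3 below 0 in all 10 settings with a value per gene, and 16 changed sign. This count was not made over all genes, so there is no share to read it against. Dim probes limit *hoxa1a*, *hoxb1a*, *hoxa2b*, *hoxa11a* and *hoxd12a*, with 80.3% of the *miR-132* MO spots well above background.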

Other observations

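The probe that set the low value of *hoxc12b* counted as well above background on each array, with no outlier flag. The 57 spots within 4 rows and columns of it that were above background had a median log2 ratio of 0.005, between -1.16 and 0.54, against -1.30 for the probe itself. Around the other *hoxc12b* probe, the 58 such spots had a median of 0.08. What sets the 2 probes apart was not tested.

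Among the Hox probes above background on both arrays, the 112 used less the 5 dim ones, Spearman's rho of the log2 ratio with the mean level was -0.12, and it was -0.03 over 22451 probes of named genes. This rho sets probes of different genes side by side, so it does not describe the probes within a gene. For example, in *hoxd3a*, *hoxb5b* and *hoxb3a* the dimmer probes read the higher ratios, while in *hoxb9a* the dimmest of the 3 probes read the lowest. With each gene read by its brightest probe, the Hox median was 0.12, against 0.20 for the mean of the probes. The median of all genes was then -0.02, against 0.004.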
